A study of Mus musculus with 15 samples.

Results

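The FGF receptor genes Fgfr1, Fgfr2 and Fgfr3 were followed through ChIP-seq lists of mouse lens cells, together with the docking adaptor Frs2 and 6 feedback inhibitors of the pathway, Spry1, Spry2, Spry4, Spred1, Spred2 and Dusp6. These 10 genes, of 22208 protein-coding genes in the annotation, were named by their function in the pathway. For each gene, every region was taken that fell in the gene body or within 50 kb of it in the mm9 build with GENCODE vM1 transcripts.

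The cells were αTN4, lens epithelial cells of the mouse that carry the SV40 T antigen. Stable lines carried either a control shRNA or a Pax6 shRNA (Pax6 KD), delivered by lentivirus, and both were selected with puromycin for 14 days, so that the control cells carried a vector and the drug as well. Control αTN4 cells gave lists of Pax6, RNA polymerase II (Pol2), H3K4me1, H3K4me2 and H3K4me3, and Pax6 KD cells gave lists of the 3 histone marks. Newborn (P1) lens of CD-1 mice, a whole tissue in which epithelium and fibre cells were not separated, gave a list of H3K4me2. Each mark had 1 deposited list per condition, so no replicate error and no p-value can be given, and differences below compare lists. Peak names of the control H3K4me2 list carry a tag for both replicates, and those of the Pax6 KD and lens H3K4me2 lists do not, so the control list may rest on pooled libraries where the others do not. The part of this in the H3K4me2 differences below was not tested. The level of Pax6 RNA in these lines was not analysed here.

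FGF receptors are tyrosine kinases at the cell surface. Once bound by FGF they phosphorylate FRS2, which recruits GRB2 and SOS and so starts the RAS, RAF, MEK and ERK cascade. Sprouty and SPRED proteins restrain the cascade at RAS and RAF, and DUSP6 removes phosphate from ERK. Several of these inhibitors are themselves induced by ERK signalling. In the lens, FGF drives epithelial cells to become fibre cells. H3K4me3 marks active promoters, H3K4me1 marks mostly distal elements, and H3K4me2 is found at both.

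The lists held from 504 regions (Pax6) to 66274 regions (H3K4me2 of control αTN4). Peaks were called with MACS2 and H3K4me1 islands with SICER. How deeply the MACS2 libraries were sequenced is unknown. Folds over background are on a scale of their own in each list, so a fold in one list is not to be set against a fold in another, and strength is compared between lists by the percentile of the fold within its list. H3K4me1 islands held 3289553 ChIP reads in control and 1849269 in Pax6 KD. Promoter H3K4me3 in control αTN4 was present at 4 of 6 lens epithelium markers and absent at Foxe3 and Cdh1, at 3 of 7 lens fibre markers and at 2 of 2 fibroblast markers (Pdgfra and Col1a1), and absent at 3 endothelium, 2 photoreceptor markers and 1 leukocyte marker. In newborn lens, promoter H3K4me2 was present at 6 of 6 epithelium and 7 of 7 fibre markers, and also at 2 of 2 fibroblast, 2 of 3 endothelium and 1 of 2 photoreceptor markers, with none at the leukocyte marker. The part of other cells in the lens values was not tested.

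Fgfr2 needs a choice of gene model. A protein-coding transcript annotated to Fgfr2 runs on chromosome 7 from 137305965 to 140315033, a span of 3009 kb that crosses Plekha1 and 31 other protein-coding genes, and it starts 2 bp from a start of Ctbp2. The other Fgfr2 transcripts span 104 kb, from 137306026 to 137410322 on the minus strand. Values below use this shorter span for Fgfr2 unless the long transcript is named, and totals are given both ways.

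**Figure D1:**
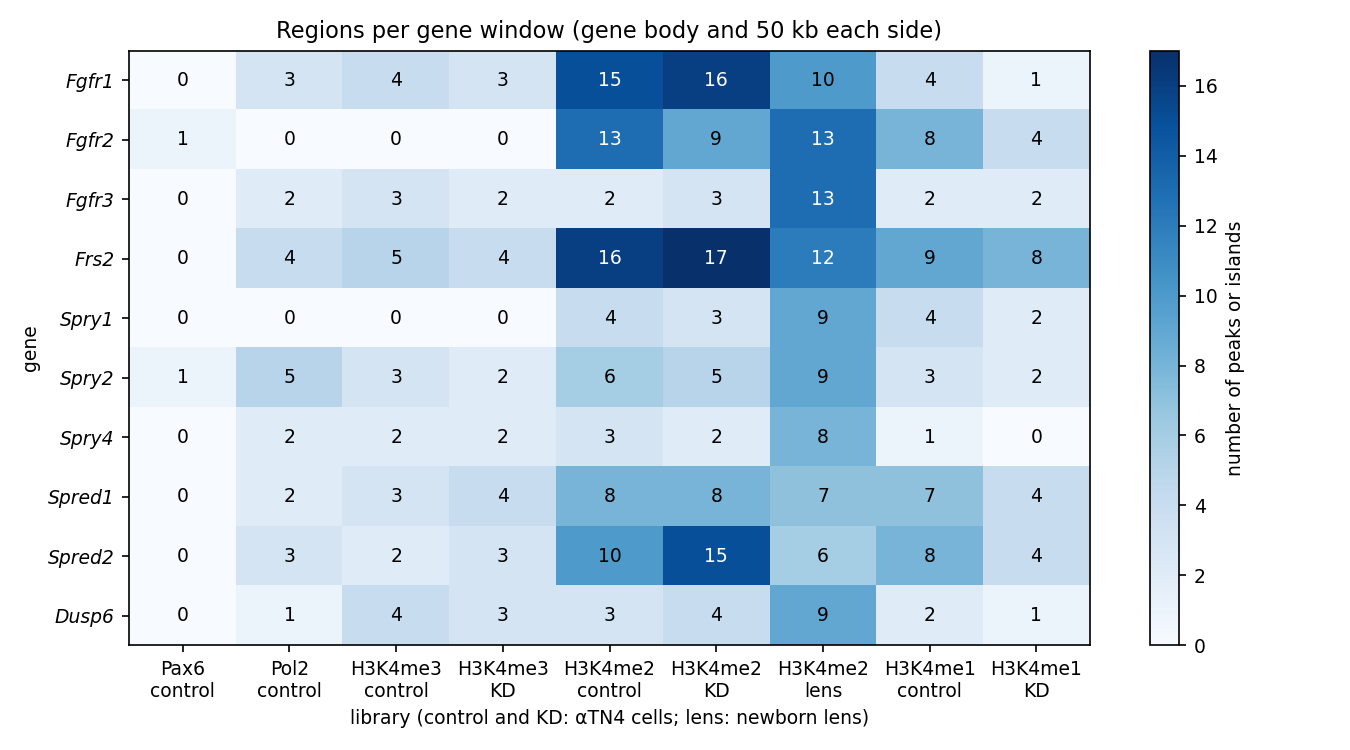
Number of deposited regions in each gene window (rows; gene body and 50 kb on each side, with the 104 kb span for Fgfr2) in each of the 9 libraries (columns; control and KD are αTN4 cells with control or Pax6 shRNA, lens is newborn lens). Shading and digits give the count: Pax6 had 1 peak at Fgfr2 and 1 at Spry2, and Fgfr2 and Spry1 had 0 Pol2 and 0 H3K4me3 regions.

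In the 10 windows, control αTN4 had 2 Pax6 peaks, 22 Pol2 peaks, 26 H3K4me3 peaks, 80 H3K4me2 peaks and 48 H3K4me1 islands. Pax6 KD cells had 23 H3K4me3 peaks, 82 H3K4me2 peaks and 28 H3K4me1 islands, and newborn lens had 96 H3K4me2 peaks. With the long Fgfr2 transcript the windows held 7 Pax6, 53 Pol2, 53 H3K4me3, 197 H3K4me2 and 148 H3K4me1 regions in control αTN4. Most of the added regions belong to other genes, and the nearest protein-coding start of each of the 5 added Pax6 peaks was that of Plekha1 (2 peaks), Htra1, Oat or Ctbp2.

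Pax6, the transcription factor targeted by the knockdown, was found near 2 of the 10 genes and at the promoter of 0 of them. Of all protein-coding genes, 3.47% had a Pax6 peak in a window built in the same manner, and 0.252% had one within 2 kb of a start. The peak near Fgfr2 lay at chr7:137433084-137433211, between genes, with its summit 22.8 kb upstream of the nearest Fgfr2 start. Its fold was 7.30 (percentile 58.2 of the Pax6 list) and its −log10 q was 9.53. It overlapped H3K4me2 in control αTN4, in Pax6 KD αTN4 and in newborn lens, and an H3K4me1 island in control αTN4 alone of the H3K4me1 lists. The peak near Spry2, a Sprouty inhibitor of RAS signalling, lay at chr14:106250675-106250805, between genes and 45.3 kb downstream of the Spry2 start. Its fold was 6.01 (percentile 28.1) and its −log10 q was 5.83, and it overlapped H3K4me2 in all 3 H3K4me2 lists and no H3K4me1 island.

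The sequences of both peaks are shown because they are the Pax6-bound stretches nearest to these genes, with the strongest peak of the long Fgfr2 span, upstream of Plekha1, for comparison. They were read from mm9 on the plus strand, and of the last the 201 bases around the summit are given.
Fgfr2, chr7:137433084-137433211: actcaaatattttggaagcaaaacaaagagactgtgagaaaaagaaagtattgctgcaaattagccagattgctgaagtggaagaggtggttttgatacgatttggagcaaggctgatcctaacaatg
Spry2, chr14:106250675-106250805: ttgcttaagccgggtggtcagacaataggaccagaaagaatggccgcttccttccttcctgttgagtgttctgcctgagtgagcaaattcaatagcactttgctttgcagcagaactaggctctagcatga
Plekha1, chr7:137981652-137981852: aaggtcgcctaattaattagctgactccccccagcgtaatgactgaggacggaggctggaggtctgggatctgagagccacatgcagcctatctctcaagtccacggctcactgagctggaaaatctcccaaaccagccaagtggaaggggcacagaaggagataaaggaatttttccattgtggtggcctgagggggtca

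The search covered 4 short words on both strands within 100 bp of each summit, namely TTCACGC for Pax6, TGANTCA for AP-1, CCGGAA for Ets and TGACAG for Meis factors. None of the 4 words was found at the Fgfr2, Spry2 or Plekha1 upstream summit, which says only that these letters are not in these windows. It does not show that a Pax6 site is lacking. In the peak upstream of Plekha1 the authors predicted Pax6 sites, and Sox and Maf sites, which are not marked in the sequence above. Over all 504 Pax6 peaks, TTCACGC was found in 4.37%, TGANTCA in 21.8%, CCGGAA in 6.15% and TGACAG in 13.9%, against 0.496%, 7.04%, 1.88% and 10.9% of 1008 windows centred 500 bp to the sides. At least 1 word was found at 39.5% of the peaks and 19.3% of the side windows. Of the other peaks reached only by the long Fgfr2 transcript, the Plekha1 intron peak held TGACAG, the Ctbp2 peak CCGGAA and the Oat peak none. The peak in an intron of Htra1 held TGANTCA, shown in capitals as an example of a match.
Htra1, chr7:138101359-138101538: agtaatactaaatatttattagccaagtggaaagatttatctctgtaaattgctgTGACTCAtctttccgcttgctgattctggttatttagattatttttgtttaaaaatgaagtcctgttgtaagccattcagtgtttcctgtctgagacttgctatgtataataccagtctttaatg

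The peak upstream of Plekha1, at chr7:137981498-137981945, was the strongest of the 7, with a fold of 18.2 and a percentile of 99.0. Its summit lay 571 kb upstream of the nearest start of the shorter Fgfr2 transcripts. The Htra1 peak had a fold of 9.62, the peak in an intron of Oat 7.81, the peak in a UTR of Ctbp2 6.27 and the peak in a Plekha1 intron 4.75. The Fgfr2 upstream peak and the Spry2 downstream peak thus were of middle and low rank in the Pax6 list, and the strongest binding in the annotated Fgfr2 span lay near another gene.

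At promoters, the 10 genes split into 3 patterns. A promoter H3K4me3 peak, within 2 kb of a protein-coding start, was present in control αTN4 at 7 of 10 genes (Fgfr3, Frs2, Spry2, Spry4, Spred1, Spred2 and Dusp6), against 49.2% of all genes, and at the same 7 genes in Pax6 KD, against 47.9%. These 7 also had a promoter Pol2 peak, a combination present at 46.5% of all genes. Fgfr1 had a Pol2 peak and no H3K4me3 peak, so that Pol2 was present at 8 of 10 genes, against 48.1% of all. Fgfr2 and Spry1 had no promoter peak of either, and in fact no Pol2 or H3K4me3 peak in their whole windows. If the start of the long transcript, next to that of Ctbp2, is taken as an Fgfr2 promoter, the counts become 8 of 10 for H3K4me3 and 9 of 10 for Pol2.

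H3K4me2, in contrast, was present at the promoters of all 10 genes in control αTN4, in Pax6 KD and in newborn lens, against 58.4%, 57.3% and 66.9% of all genes. The strength differed among them. At Fgfr1, Fgfr2 and Spry1, the strongest promoter H3K4me2 peak of control αTN4 had a fold of 7.82, 7.01 and 6.90 (percentiles 55.3, 50.5 and 49.8). At the other 7 genes it had a fold of 15.5 or more, at percentile 81.6 or above. These percentiles are among all peaks of the list, distal ones included. Among the strongest peaks of 12955 marked promoters, Fgfr1, Fgfr2 and Spry1 were at percentiles 8.72, 7.60 and 7.38 in control αTN4, and among 14862 in newborn lens at 30.3, 48.1 and 30.3. A promoter with H3K4me2 in newborn lens and no H3K4me3 in αTN4, as at these 3 genes, was seen at 17.9% of all genes.

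**Figure D2:**
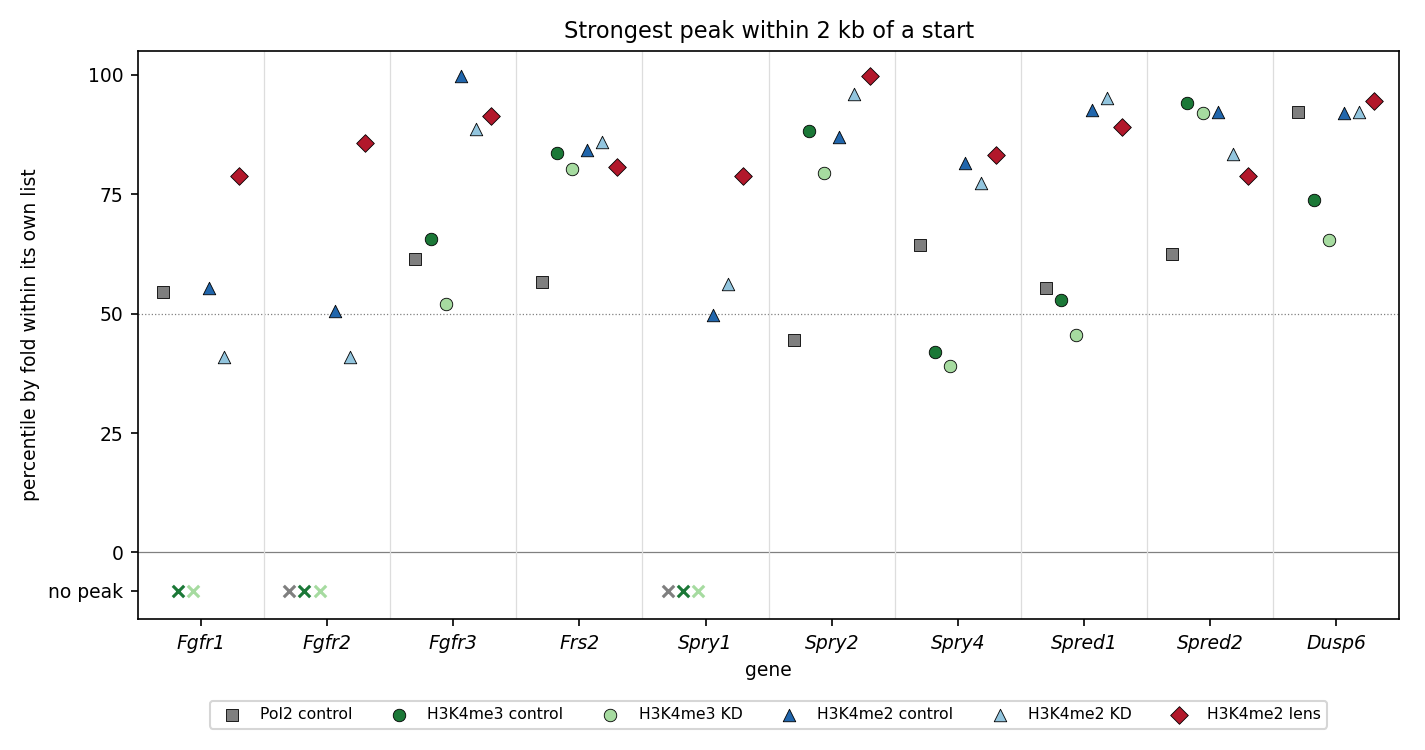
Percentile by fold, within its own list, of the strongest peak within 2 kb of a start of each gene (x axis), for Pol2, H3K4me3 and H3K4me2; crosses below 0 mark genes with no such peak. Each point is 1 list, ranked among all of its peaks: Fgfr1, Fgfr2 and Spry1 lie near percentile 50 for H3K4me2 in control αTN4 and between 78.8 and 85.8 in newborn lens, and Dusp6 has the highest Pol2 point at 92.2.

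Among the receptors, Fgfr3 (chromosome 5, 34064373 to 34079716, plus strand) had the strongest promoter in control αTN4. Its H3K4me2 peak of 2698 bp had a fold of 29.3, at percentile 99.8 of the control list, and 20.1 in Pax6 KD (percentile 88.7) and 26.1 in newborn lens (percentile 91.4). H3K4me3 at the same place had a fold of 23.0 in control (percentile 65.7) and 13.5 in Pax6 KD (percentile 51.9), and Pol2 had a fold of 12.5 with its summit 96 bp from the start. Fgfr1 (chromosome 8, 26624126 to 26686186, plus strand) had a Pol2 peak of 371 bp with a fold of 10.8 (percentile 54.6), its summit 40 bp from a start. Its promoter H3K4me2 was split into 3 peaks of 3351 bp in sum in control αTN4 and 4 peaks of 2445 bp in Pax6 KD, whereas newborn lens had 2 peaks of 5113 bp in sum, the stronger of 3813 bp with a fold of 19.7. The H3K4me3 and the other Pol2 peaks in the Fgfr1 window lay nearest to the starts of the neighbours Letm2 and Whsc1l1.

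At Fgfr2 the strongest promoter H3K4me2 peak was 1147 bp wide and at percentile 50.5 in control αTN4, 626 bp and percentile 40.8 in Pax6 KD, and 6517 bp and percentile 85.8 in newborn lens. The lens peak reached across the outermost Fgfr2 start. The promoter H3K4me1 island of control αTN4, with 42 ChIP reads in 2.6 kb, had no counterpart in Pax6 KD.

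The adaptor Frs2 (chromosome 10, 116507185 to 116585530, minus strand) had 4 promoter H3K4me3 peaks in control and 3 in Pax6 KD, the strongest with a fold of 30.6 (percentile 83.6) and 20.4 (percentile 80.2). Of its 4 Pol2 peaks, 1 lay at the neighbour Cct2, and the promoter peaks had folds of 11.2 and 7.83. A peak 26.3 kb upstream had a fold of 5.62 and overlapped H3K4me2 of all 3 H3K4me2 lists.

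Among the Sprouty genes, which encode inhibitors between receptor and RAS, Spry2 (chromosome 14, 106291166 to 106296036, minus strand) had 5 promoter Pol2 peaks with folds from 4.40 to 8.56 on both sides of the start. Its promoter H3K4me3 had a fold of 33.2 in control (percentile 88.1) and 20.2 in Pax6 KD (percentile 79.4). Spry4 (chromosome 18, 38745922 to 38760922, minus strand) had the weakest promoter H3K4me3 of the 7 genes, with a fold of 14.7 in control (percentile 42.0) and 10.8 in Pax6 KD (percentile 39.0), but a Pol2 fold of 13.2, higher in rank than that of Spry2. Spry1 (chromosome 3, 37538869 to 37543520, plus strand) had no Pol2 or H3K4me3 peak, and its promoter H3K4me2 had a fold of 6.90 in control (percentile 49.8), 8.43 in Pax6 KD (percentile 56.2) and 19.7 in newborn lens (percentile 78.8).

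Spred1 and Spred2 encode membrane-bound relatives of Sprouty. Spred2 (chromosome 11, 19824378 to 19924029, plus strand) had the strongest promoter H3K4me3 of the 10 genes, with a fold of 38.5 in control (percentile 94.0) and 25.3 in Pax6 KD (percentile 92). At Spred1 (chromosome 2, 116947110 to 117008015, plus strand) the values were 18.4 (percentile 52.9) and 12.2 (percentile 45.5). Dusp6 (chromosome 10, 98725865 to 98730122, plus strand), the ERK phosphatase, had the strongest Pol2 peak, with a fold of 25.2 (percentile 92.2) over 2649 bp. Its promoter H3K4me3 had a fold of 26 in control (percentile 73.8) and 16.5 in Pax6 KD (percentile 65.3).

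Folds of the whole H3K4me3 list were lower in Pax6 KD, with a median of 13.1 against 17.4. Ranked within its list, promoter H3K4me3 was lower in Pax6 KD at 7 of 7 genes, against 58.4% of all genes with a peak in both. The difference in percentile was widest at Fgfr3 and narrowest at Spred2. With 1 list each, the spread that these differences should be set against is unknown. Promoter H3K4me2 was lower in rank in Pax6 KD at 5 of 10 genes, against 57.3%, and higher in rank in newborn lens than in control αTN4 at 6 of 10 (Fgfr1, Fgfr2, Spry1, Spry2, Spry4 and Dusp6), against 49.9%. A promoter H3K4me1 island was present at 5 of 10 genes in control αTN4 (Fgfr2, Fgfr3, Frs2, Spred1 and Spred2), against 36.1% of all genes, and at 3 in Pax6 KD (Fgfr3, Frs2 and Spred1), against 16.8%.

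The bases upstream of the Dusp6 promoter are shown, since it had the strongest Pol2 peak of the 10 genes. They are the 250 bases before a protein-coding start, read from mm9 in the direction of transcription, with CpG dinucleotides in capitals.
Dusp6, chr10:98725615-98725864, plus strand: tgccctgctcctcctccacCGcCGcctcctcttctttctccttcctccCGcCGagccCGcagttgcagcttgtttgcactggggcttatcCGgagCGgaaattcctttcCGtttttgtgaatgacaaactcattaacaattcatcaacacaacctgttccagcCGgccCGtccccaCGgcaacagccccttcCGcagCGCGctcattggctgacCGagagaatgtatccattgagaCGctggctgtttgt

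The Dusp6 stretch held 16 CpG, against a median of 9 over 22197 genes. Stretches of the same length held 33 at Fgfr2, 19 at Fgfr3, 19 at Frs2, 25 at Spry1, 23 at Spry2, 20 at Spry4, 42 at Spred1 and 10 at Spred2. The 9 counts given were above the median. Fgfr2 and Spry1, with no H3K4me3 or Pol2 peak in αTN4, had the next highest of these after Spred1 (percentiles 95.5 and 87.9), but their stretches overlap annotated exons.

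Across the windows, H3K4me2 covered more of the sequence in newborn lens than in control αTN4 at 8 of 10 genes, a direction seen at 33.4% of all genes. The 2 exceptions were Frs2 and Spred2. The 33.4% is taken over all genes, also those with no lens H3K4me2 in the window, which could not be higher. All 10 genes had lens peaks, so the 2 shares are not alike in their base. Cover rose from 4.33% in control to 13.7% in lens at Fgfr3, from 3.52% to 9.80% at Spry1, from 7.14% to 13.2% at Dusp6 and from 3.46% to 8.92% at Spry4. The difference at these 4 genes lay at percentiles 99.2, 98.0, 97.9 and 97.2 of all genes. Smaller differences were seen at Fgfr2 (5.13% to 7.48%, percentile 90.2), Spry2 (8.94% to 10.7%, percentile 86.8), Spred1 (5.02% to 5.65%) and Fgfr1 (9.51% to 9.80%). At Spred2 cover was 9.31% in control and 3.35% in lens (percentile 8.64), and at Frs2 9.51% and 5.08% (percentile 13.5). The whole lists covered 74.3 Mb in control αTN4 and 58.9 Mb in lens. Cultured transformed cells and fresh tissue of mixed cells were compared, and the sources of a difference cannot be told apart.

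**Figure D3:**
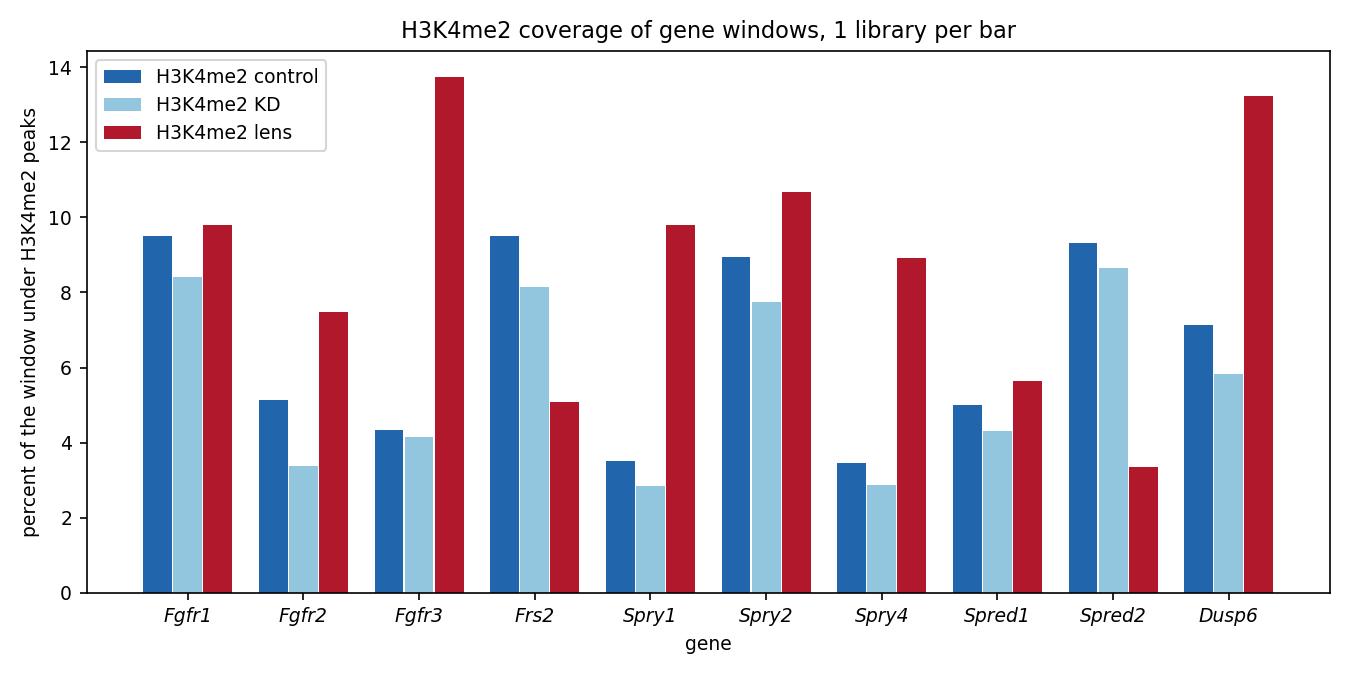
Percent of each gene window (x axis; gene body and 50 kb on each side) that lay under H3K4me2 peaks in control αTN4, Pax6 KD αTN4 and newborn lens, 1 list per bar. The lens bar is the tallest at 8 genes and reaches 13.7% at Fgfr3, while at Frs2 and Spred2 it is the shortest.

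Fgfr3 differed between cell line and tissue through distal peaks. Newborn lens had 13 H3K4me2 peaks in its window, of which 11 had no counterpart in control αTN4, and control αTN4 had 2, at the starts of Fgfr3 and of its neighbour Letm1. Of the 11 lens peaks, 10 lay upstream, from 16.0 to 47.3 kb from the Fgfr3 start, and the strongest had a fold of 16.2 at 25.8 kb. The 2 farthest lay in introns of the neighbour Tacc3, whose start was also the nearest one for 3 more. Both H3K4me1 islands of control αTN4, centred 15.6 and 2.77 kb upstream of the start, were also called in Pax6 KD.

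At Fgfr2, 10 of 13 lens peaks had no counterpart in control αTN4, and 9 of 13 control peaks had none in lens. The shared peaks were those at the promoter, a peak in an intron 46.5 kb downstream of the nearest start and the peak with Pax6 upstream. This upstream peak was the strongest H3K4me2 peak of the Fgfr2 window in αTN4, with a fold of 19.7 in control (percentile 91.7) and 21.9 in Pax6 KD (percentile 91.8). In newborn lens it had a fold of 10.2 (percentile 62.1), below that of the Fgfr2 promoter.

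**Figure D4:**
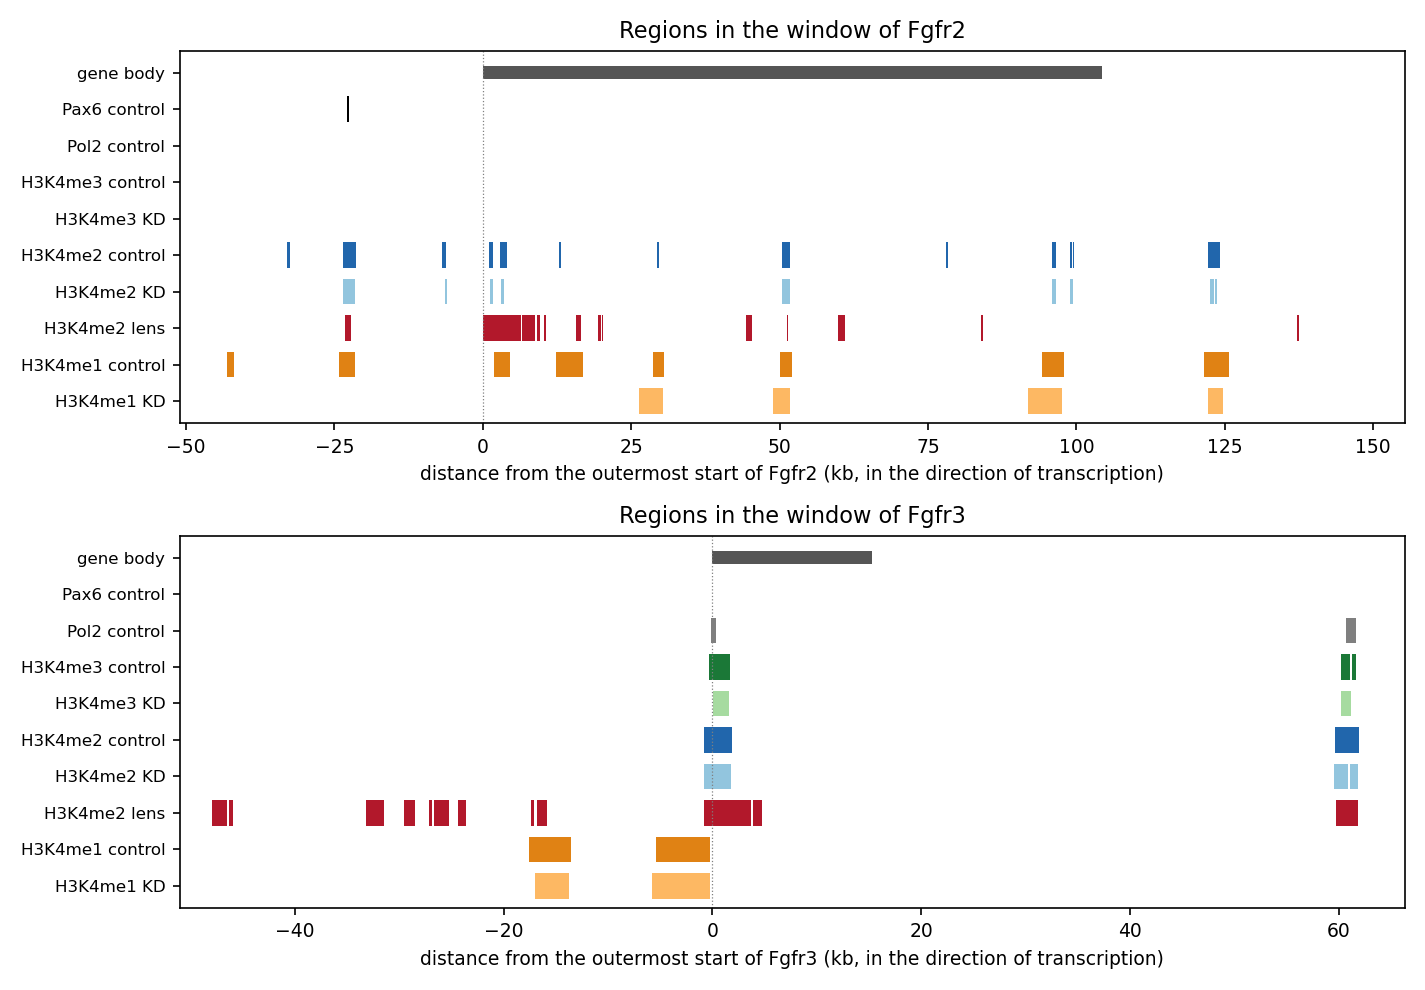
Regions in the windows of Fgfr2 (top) and Fgfr3 (bottom), drawn to scale against the distance in kb from the outermost start of the 104 kb Fgfr2 span and of Fgfr3, in the direction of transcription, with 1 row per library. The Fgfr2 rows of Pol2 and H3K4me3 are empty, its Pax6 peak lies 22.8 kb upstream of the nearest start, and the Fgfr3 window has a run of upstream H3K4me2 peaks in lens.

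At the Sprouty genes and Dusp6, most αTN4 peaks were also found in lens, with further peaks in lens. At Spry1, Spry2 and Spry4, each of the 4, 6 and 3 control peaks overlapped a lens peak, and 5, 2 and 6 lens peaks were without a control peak. The strongest Spry1 peak of αTN4 lay 14.4 kb downstream of the start, with a fold of 20.7 in control (percentile 93.4), 21.7 in Pax6 KD (percentile 91.5) and 13.7 in lens (percentile 68.5). A lens peak 47.4 kb downstream of Spry1, nearer to the start of Gm5148, had a fold of 22.6 and no control H3K4me2. An H3K4me1 island lay there in both αTN4 lists. Spry2 had a peak 1.77 kb upstream of its start at percentile 85.1 in control, 96.0 in Pax6 KD and 99.6 in lens, where its fold was 34.8. At Spry4 the strongest lens peak was not at the promoter but 30.7 kb upstream, in an intron of Arhgap26, at percentile 98.9 in lens, 73.0 in control and 69.7 in Pax6 KD. A Pol2 peak with a fold of 5.87 lay at this place in control αTN4. At Dusp6 the promoter peak was 9208 bp wide in lens, over the whole gene, and 5751 bp wide in control. A further 7 lens peaks, from 20.2 to 35.9 kb away on both sides, had no control peak and folds up to 10.9.

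Spred2 showed the reverse. Of its 10 control H3K4me2 peaks, 8 had no lens counterpart, and 4 of 6 lens peaks had no control counterpart. The strongest control peak without a lens counterpart, 3038 bp wide in an intron 25.3 kb downstream of the nearest Spred2 start, had a fold of 19.6 in control (percentile 91.5) and 19.1 in Pax6 KD (percentile 87.2). It lay in an H3K4me1 island of 18 kb with 473 ChIP reads in control, matched in Pax6 KD by an island of 18.8 kb with 381 reads. In the Frs2 window, 7 of 16 control peaks had no lens counterpart, with folds up to 8.62. The strongest of these lay nearest to the start of the neighbour Lrrc10, as did some of the others.

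Of the 80 control H3K4me2 peaks in the 10 windows, 45 overlapped a lens peak, a share of 56.2% (95% Wilson interval 45.3 to 66.6%), against 41.3% of the whole list. With the long Fgfr2 transcript the share was 96 of 197, or 48.7% (41.8 to 55.7%). In the other direction, 41 of 96 lens peaks overlapped a control peak, 42.7% (33.3 to 52.7%), against 45.4% of the lens list. The intervals cover counting error only.

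Between control and Pax6 KD cells, most H3K4me2 and H3K4me3 regions in the windows were found in both. Some of these regions lay nearest to the start of a neighbouring gene. With only regions nearest to a start of the 10 genes, the long Fgfr2 transcript included, 46 of 57 control H3K4me2 peaks (80.7%) overlapped a KD peak. For H3K4me3 this held for 16 of 18 (88.9%). Of the 80 control H3K4me2 peaks, 68 were kept, that is, overlapped a KD peak, a share of 85.0% (75.6 to 91.2%), against 82.5% of the whole list. With the long Fgfr2 transcript the share was 156 of 197, or 79.2% (73.0 to 84.3%). The 12 peaks without a KD counterpart had a fold of at most 5.87 and a median percentile of 16.4, against 55.0 for the kept peaks, and over the whole list the medians were 16.3 and 58.8. Fgfr2 had 4 of the 12, Fgfr1 and Spred1 had 2 each, and Fgfr3, Spry4 and Spred2 had 0. Window cover by H3K4me2 was lower in Pax6 KD at 10 of 10 genes, a direction seen at 75.3% of all genes, and the largest difference was at Fgfr2, from 5.13% to 3.38% (percentile 15.3 of all genes). The 75.3% is taken over all genes, also those with no control H3K4me2 in the window, which could not be lower. For H3K4me3, 22 of 26 peaks were kept, 84.6% (66.5 to 93.8%), or 47 of 53 with the long transcript, 88.7% (77.4 to 94.7%), against 89.9% of the whole list. The 4 peaks without a counterpart were weak (fold at most 6.42) and lay beside kept peaks of Frs2, Dusp6 and the neighbours Whsc1l1 and Letm1. In the other direction, 75 of 82 KD H3K4me2 peaks (91.5%) and 22 of 23 KD H3K4me3 peaks (95.7%) overlapped a control peak, against 92.7% and 97.3% of their lists. Of the 22 Pol2 peaks, 17 overlapped control H3K4me3 (77.3%), against 68.6% of the Pol2 list.

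H3K4me1 islands were lost, that is, had no overlapping KD island, more often throughout the genome. The KD list was shorter, with 18417 islands against 38007 in control, so a lost call does not show that the mark was absent. In the 10 windows, 27 of 48 control islands overlapped a KD island, a share of 56.2% (42.3 to 69.3%), and with the long Fgfr2 transcript 89 of 148, or 60.1% (52.1 to 67.7%), against 46.2% of the whole list. Islands without a KD counterpart had a median of 45 ChIP reads and those kept 83, and over the whole list the medians were 47 and 92. The ranges overlapped, from 29 to 94 reads without and from 34 to 473 with a counterpart, and the medians were 55.5 and 55 at Fgfr2. By fold, some islands without a counterpart ranked high, among them islands of Frs2 (percentile 95.5), Spry4 (91.0), Fgfr2 (86.2, the island under the Pax6 peak) and Spry1 (85.5). Spry4 lost its 1 island, Fgfr1 and Spry1 lost 3 of 4 each, Fgfr2 4 of 8, Spred1 4 of 7, Spred2 3 of 8, Spry2 1 of 3 and Frs2 2 of 9. Fgfr3 and Dusp6 lost 0 of 2 each. Of the 28 KD islands, 26 overlapped a control island (92.9%), against 93.1% of the list. Window cover by H3K4me1 was lower in Pax6 KD at 8 of 10 genes, all but Spry2 and Dusp6, a direction seen at 65.5% of all genes. The 2 shares are not alike in their base. All 10 genes had control islands, whereas the lower quartile of control H3K4me1 cover over all genes was 0. A window without control cover could not be lower, so 8 of 10 is not to be read as above the 65.5%.

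For islands kept, the change was measured in ChIP reads per kb, as the log2 of KD over control minus the median of all 17559 kept islands, which was −0.32. Control reads per kb were taken over the control island, and KD reads per kb over the KD islands overlapping it. The stretches compared can differ in width, so a higher density need not mean more reads. Taken per input read in place of per kb, the median of all kept islands was −0.016, so the list-wide fall depended on the measure. On the per-kb scale the 27 islands of the 10 windows had a median of 0.18 and ranged from −0.57 to 1.19. Of them, 9 were below 0, the median of all kept islands by construction. Per input read in place of per kb, the median of the 27 was 0.04, so its size too depended on the measure. With the long Fgfr2 transcript the median over 89 islands was 0.08, and per input read in place of per kb it was 0.03. Single islands of the whole list ran from −0.22 to 0.23 between the lower and the upper quartile. A median over many islands varies less than single islands do, so this range is no measure for the medians. Whether they differ from 0 was not tested.

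**Figure D5:**
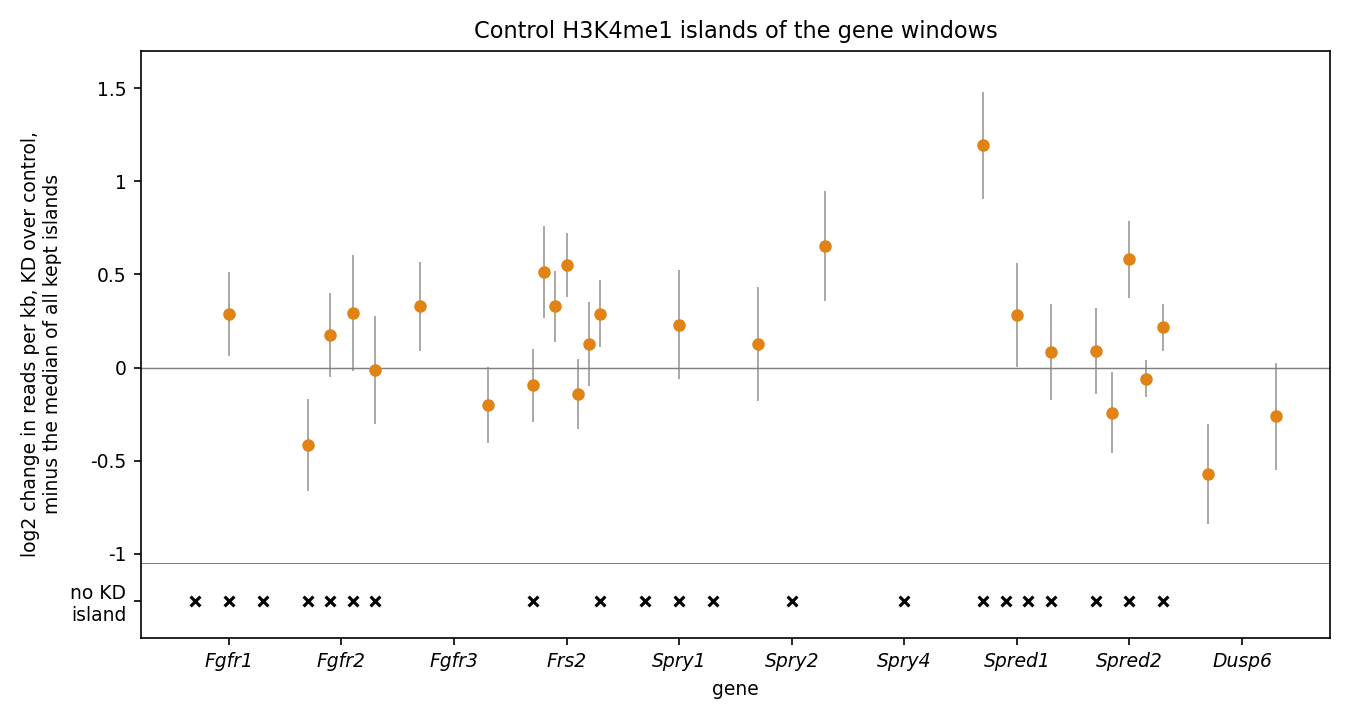
Log2 change in H3K4me1 ChIP reads per kb, Pax6 KD over control αTN4, with the median over the whole list set to 0, for each kept island by gene; bars are standard errors from read counts alone, and crosses mark control islands without a KD island. Reads per kb were taken over the control island and over the KD islands overlapping it, which can differ in width. Points range from −0.57 at Dusp6 to 1.19 at Spred1, and 21 islands are crosses.

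The island under the Pax6 peak upstream of Fgfr2, of 2.8 kb with 69 ChIP and 28 input reads and 24.6 ChIP reads per kb in control, had no KD counterpart, while the H3K4me2 peak overlapping it was kept. Another Fgfr2 island, downstream of the gene, had 126 ChIP reads in 4.2 kb in control and 47 in 2.6 kb in Pax6 KD, a relative change of −0.42 with a counting error of 0.25. Per input read the relative change of this island was −0.96, and the median over the 4 kept Fgfr2 islands was −0.28 in place of 0.08 per kb. Both Dusp6 islands, 15.8 and 12.4 kb upstream, overlapped the same KD island of 12.8 reads per kb and had relative changes of −0.57 and −0.26, with counting errors of 0.27 and 0.29. The highest value, 1.19 with a counting error of 0.29, was that of a Spred1 island 33.0 kb upstream, where a control island of 3.8 kb met a KD island of 1.8 kb. The control island held 54 ChIP reads and the KD island 47, so the higher density came with a narrower island. No H3K4me1 island lay at the Spry2 Pax6 peak in either list.

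The other genes of the pathway were taken from a list of 43, of which 41 were found in the annotation. A Pax6 peak was found in the window of 0 of the 41, where 3.47% of all genes had one. Promoter H3K4me3 was present at 25 of the 41 in control αTN4, against 49.2% of all genes, and at 25 in Pax6 KD, against 47.9%, with 0 lost and 0 gained, where 1.56% of all genes lost and 0.234% gained it. Promoter Pol2 was present at 21, against 48.1%. Of the 18 ligand genes, 3 had promoter H3K4me3 in αTN4, and they were Fgf9, Fgf15 and Fgf20 (named after their values were seen). Promoter H3K4me2 was present at 7 of the 18 ligands in control αTN4 and at 14 in newborn lens, against 58.4% and 66.9% of all genes. The intracellular steps were marked throughout: promoter H3K4me3 was present at 6 of 6 adaptors, 8 of 8 genes of the RAS to ERK cascade, 4 of 4 other feedback inhibitors and 3 of 3 ETS targets. Of the other receptors Fgfr4 and Fgfrl1, 1 had it.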

How the data were processed

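ChIP-seq lists of 9 of the 15 samples were used; the 2 inputs and 4 RNA-seq libraries were not analysed here. Bowtie was the aligner the authors named, with mm9 as the genome, and they called Pax6, Pol2, H3K4me2 and H3K4me3 peaks with MACS2 and H3K4me1 islands with SICER. The deposited MACS2 values are a fold (ratio) over background, −log10 p and q, and a display score; the deposited SICER values are a count of ChIP and input reads, a fold, a p-value and an FDR. Whether replicates were pooled is not stated, though a tag for both replicates stands in the control H3K4me2 peak names. An antibody field swaps Pax6 and Pol2; libraries were assigned by title.

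All regions lay within the chromosomes of the mm9 sequence used. Windows were gene bodies with 50 kb on each side, promoters 2 kb on each side of protein-coding starts, and overlap at least 1 bp. No test was run. Overlap and density code was tested on simulated data. All 10 genes were named, other pathway genes by a Pax6 peak or a change in promoter H3K4me3; members and lists were chosen with earlier results of these data known. The tools were pandas 2.3.3, NumPy 2.4.6, matplotlib 3.10.9 and SciPy 1.17.1 under Python 3.11.15. The upstream CpG count of 1 gene is not reported here.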

Additional observations from a re-analysis of the deposited data

How the results depend on the processing

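There were 54 alternatives, 2 of them chosen after seeing the data. Each was set against the value with the long Fgfr2 transcript included. Apart from those that left out this transcript or its start, no setting was varied on the shorter Fgfr2 span used above. Of the 54, 46 left a share inside its 95% interval, a count within 1.5 times or the median H3K4me1 change within 0.1. Only the median H3K4me1 change could be scored as reversed in direction, and no alternative reversed it. The 7 Pax6 peaks became 2 without the long Fgfr2 transcript, 2 with only regions nearest to a start of the 10 genes (each by its own construction), and 3 at −log10 q of at least 10. The share of H3K4me2 peaks kept, 79.2%, became 85.0% without the long transcript. It thus went from below to above the 82.5% of the whole list. Where a gap of up to 1 kb counted, the H3K4me2 share became 85.3%, and the H3K4me3 share went from 88.7% to 96.2%. The share in lens, 48.7%, became 56.2% without the long transcript and 57.9% with only the nearest regions; the cause was not tested. The 2 added alternatives, without the start of the long transcript, gave 7 for 8 H3K4me3 and 8 for 9 Pol2 promoters. No paired analysis was possible because each mark has 1 deposited list per condition, and no result comes from a test. H3K4me2 and H3K4me3 peaks without a KD counterpart were of low fold, which did not hold for all H3K4me1 islands. The MACS2 depth is unknown, and the H3K4me1 islands of Pax6 KD held fewer reads than those of control. A missing call of either kind therefore does not show that a mark was absent.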
